A study of Mus musculus with 12 samples.

Results

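The expression of 10 genes of prostaglandin and leukotriene metabolism was followed in 4T1 cells, an established mouse mammary carcinoma line. They were chosen as the pathway on which acetaminophen acts, with earlier results of these data known, and each name matched 1 row among the 29937 genes of the deposited table. The 10 genes are Pla2g4a, Ptgs1, Ptgs2, Ptges, Ptges2, Ptges3, Hpgd, Ptger4, Alox5ap and Lta4h. RNA from 12 libraries had been sequenced, 3 in each of 4 groups. All groups carry the genotype label WT and the same cell line, with no transgene or deletion. The controls are titled PBS and carry the treatment label DMSO, and the other groups are titled and labelled APAP, Oxa and OAP2. APAP is a common abbreviation of acetaminophen, but the labels spell out none of the 3 names and give no doses, times or animal data. The cells are described as an adherent line, while the design text of the series speaks of cell-derived xenografts. The labels do not say whether replicates were separate cultures, so the p-values rest on the spread among libraries alone, which may be technical.

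Prostaglandins are lipid signals made from arachidonic acid. A phospholipase frees the fatty acid from membranes, a cyclooxygenase turns it into the unstable intermediate prostaglandin H2, and a terminal synthase makes the final product, prostaglandin E2 in many carcinoma cells. Prostaglandin E2 acts on 4 receptors of the cell surface and is inactivated by a dehydrogenase, while another branch, opened by 5-lipoxygenase, leads to the leukotrienes. Cyclooxygenase-2 is the inducible enzyme of the route, and it is frequently abundant in mammary tumour cells.

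One control library stood apart and touches every comparison with PBS. In PBS 2 the summed FPKM (a level per length, scaled also to the depth of each library) of 7 red blood cell markers was 231.9, against 0.07 to 0.37 in the other 11 libraries. For 12 neutrophil markers it was 68.4, against 0.01 to 0.73, and none of either list was at 0 in PBS 2. The 8 platelet markers summed to 5.26 in PBS 2 and to 0.60 to 1.93 elsewhere, and most of the PBS 2 sum was Ppbp (3.45) and Pf4 (1.24). Gp1bb, Gp9, Gp6 and Treml1 were also highest in PBS 2, at 0.12 or less. Itga2b was lowest there (0.12), and Gp1ba (0.19) lay within the range of the other libraries. The 12 macrophage markers summed to 52.6 in PBS 1 and to 15.8 to 25.4 in the rest. All 6 epithelial markers were detected in every library, with sums of 835.7 to 1271.7, so the epithelial label held. PBS 2 also held the highest FPKM of the 12 libraries for 17.6% of the 12036 tested genes, and PBS 3 for 15.0%. The tests were run with all 12 libraries and again without PBS 2. The part of these other transcripts in the results was not tested, and in bulk RNA fewer cells of a type and less RNA per cell cannot be told apart. Total counts lay between 64071751 and 71500487 per library.

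The DNA before the start of the 3 genes at the head of the route is shown as a description, and because Pla2g4a and Ptgs2 are neighbours on chromosome 1. Whether it bears on their levels was not tested. The sequences are the 250 bases before the annotated start in RefSeq, build GRCm38.p6, written 5′ to 3′ on the strand of the gene. Of the 10 genes, 9 had an entry.
Ptgs2 (chr1:150099781-150100030, plus strand, GC content 61.6%): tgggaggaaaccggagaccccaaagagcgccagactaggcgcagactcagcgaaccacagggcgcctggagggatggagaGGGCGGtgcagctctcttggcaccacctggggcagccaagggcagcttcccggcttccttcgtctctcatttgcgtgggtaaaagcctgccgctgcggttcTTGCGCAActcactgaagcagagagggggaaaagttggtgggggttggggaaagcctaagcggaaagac
Pla2g4a (chr1:149961291-149961540, minus strand, GC content 43.2%): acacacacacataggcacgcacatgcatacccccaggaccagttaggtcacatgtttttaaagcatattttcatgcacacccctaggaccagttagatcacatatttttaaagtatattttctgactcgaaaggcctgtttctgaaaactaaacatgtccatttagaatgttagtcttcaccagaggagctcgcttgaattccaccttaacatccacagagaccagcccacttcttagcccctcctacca
Ptgs1 (chr2:36230176-36230425, plus strand, GC content 48.0%): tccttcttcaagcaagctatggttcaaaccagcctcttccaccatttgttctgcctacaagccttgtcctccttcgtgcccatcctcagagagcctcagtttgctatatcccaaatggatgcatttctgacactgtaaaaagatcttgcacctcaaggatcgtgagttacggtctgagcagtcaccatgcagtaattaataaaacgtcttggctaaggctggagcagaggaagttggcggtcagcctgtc
Ptgs2 after its start (chr1:150100037-150100066, plus strand, bases 7 to 36 of the transcript): accactaCGTCACGTGgagtccgctttaca

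Capitals mark matches to 8 short motifs searched on both strands, in windows of 300 bases that run 50 bases past the start. The searched letters were TATAAA (bound by the general transcription machinery), CCAAT (bound by NF-Y), GGGCGG (bound by Sp1), TTNNGCAA (C/EBP type), CGTCA (core of the cyclic AMP response element), CACGTG (E-box), TGANTCA (AP-1 type) and the NF-kB consensus. The Ptgs2 window held GGGCGG, at 170 to 165 bases before the start, a motif present in 35.7% of the 32851 promoter windows of the genome table. It held TTGCGCAA, a match to TTNNGCAA, at 69 to 62 bases before the start, a motif present in 10.8% of windows. After the start it held CGTCA at bases 14 to 18 and CACGTG at bases 17 to 22, which overlap and occur in 20.8% and 7.15% of windows. The letters TATAAA (13.6% of windows), CCAAT (37.4%), TGANTCA (7.81%) and the NF-kB consensus (8.46%) were not found in the Ptgs2 window. The windows of Pla2g4a and Ptgs1 held none of the 8 motifs. Positions are counted from the annotated start, and another start would shift them. DNA outside the 300 bases was not searched, so a motif not found here may lie outside the window. A match of letters is a description and not a bound site, and no binding was measured here.

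Of the 10 genes, 6 passed the filter for testing (FPKM of at least 1 in at least 3 libraries): Pla2g4a, Ptgs1, Ptgs2, Ptges2, Ptges3 and Lta4h. Ptges, Hpgd, Ptger4 and Alox5ap did not and are described by their levels. Counts were tested with edgeR's quasi-likelihood test over all 12036 genes that passed, with Benjamini-Hochberg adjustment, and calls were made at an adjusted p below 0.05. Changes are edgeR log2 fold changes ± SE, and levels are FPKM. The 3 comparisons with PBS share the same control libraries, so their values are set side by side and not counted as separate evidence.

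Ptgs2, the inducible cyclooxygenase, and Pla2g4a, the cytosolic phospholipase that frees arachidonic acid, were the 2 members called in OAP2 against PBS, both lower in OAP2. In that comparison 5.25% of tested genes were called, 3.11% as lower. Pla2g4a was the 1 member called in Oxa against PBS, where 10.1% of genes were called, 4.76% as lower. No member was called in APAP against PBS, where edgeR called 0.0166% of genes (2 genes, with 1103 at an unadjusted p below 0.05) and where, of the members, Ptgs1, Ptgs2 and Pla2g4a had an unadjusted p below 0.05. No member was called in OAP2 against Oxa (12.9% of genes called), OAP2 against APAP (0.474%) or Oxa against APAP (15.4%). The test for any difference among the 4 groups called Ptgs2 and Pla2g4a, against 17.1% of all genes. The median log2 fold change over the 6 tested members was -0.31 in OAP2 against PBS, -0.23 in Oxa against PBS and -0.23 in APAP against PBS, and over all tested genes it was -0.00071, -0.013 and -0.0041. With all 12 libraries, all 6 tested members had negative values in each of these 3 comparisons, which share their controls. Without PBS 2, 6 were negative in OAP2 against PBS. In Oxa against PBS and in APAP against PBS 5 were, the exceptions being Ptgs2 (0.07) and Ptges3 (0.0014). Every tested member had its highest library in PBS, namely Ptgs1, Ptgs2, Ptges3 and Lta4h in PBS 2 and Pla2g4a and Ptges2 in PBS 3. Of all tested genes, 3.4% were highest in PBS 1, 17.6% in PBS 2 and 15.0% in PBS 3.

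Without PBS 2, the median over the 6 members was -0.26 in OAP2 against PBS, -0.11 in Oxa against PBS and -0.16 in APAP against PBS. The members called were then the same 2 genes in OAP2 against PBS and Pla2g4a in Oxa against PBS. Ptgs2 was called in addition in OAP2 against Oxa and in Oxa against APAP, and Pla2g4a in OAP2 against APAP. The shares of all genes called rose as well, to 16.4%, 25.5% and 0.0249% in the comparisons of OAP2, Oxa and APAP with PBS, to 22.8% in OAP2 against Oxa, 7.61% in OAP2 against APAP and 27.7% in Oxa against APAP. In the direction of the members called, they were 7.65% (lower in OAP2 than in PBS), 11.2% (lower in Oxa than in PBS), 12.7% (lower in OAP2 than in Oxa), 14.7% (higher in Oxa than in APAP) and 3.48% (lower in OAP2 than in APAP).

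**Figure D1:**
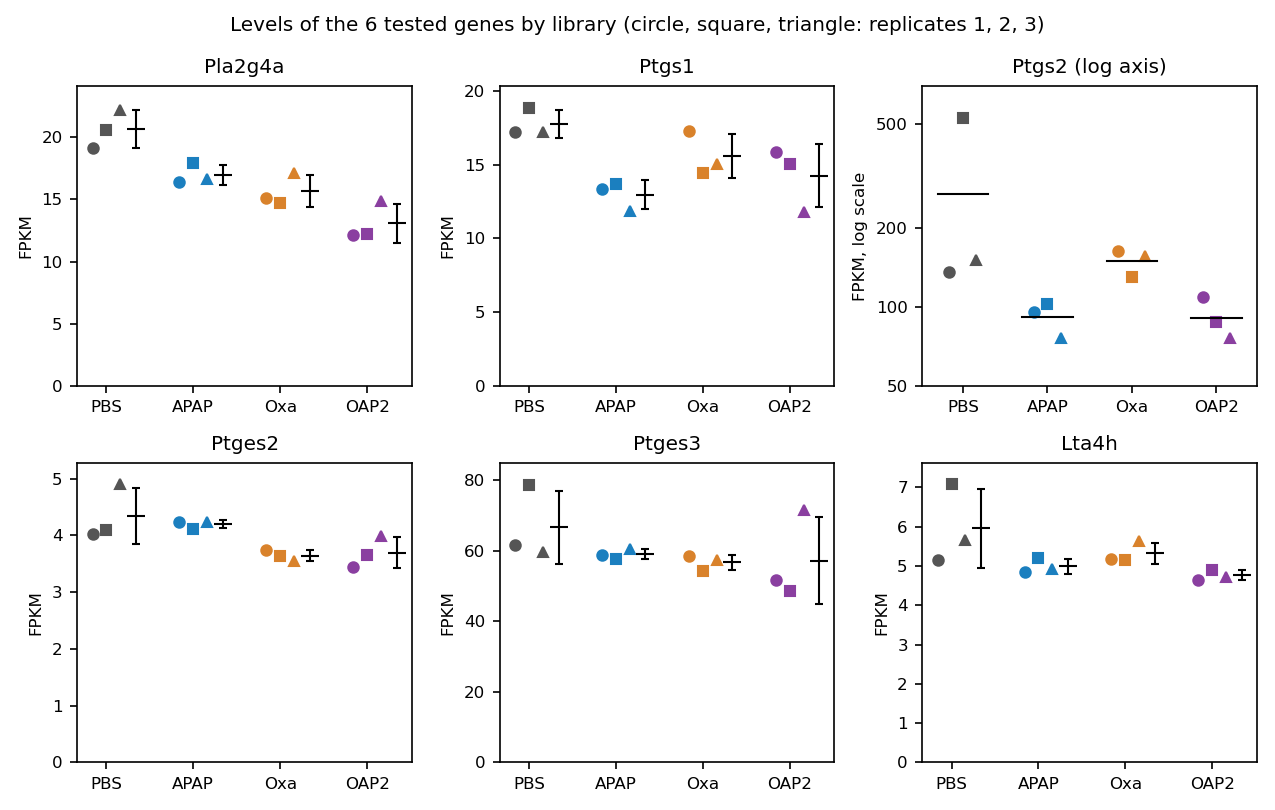
FPKM of the 6 tested genes (vertical axis) in each library by group, with circles, squares and triangles for replicates 1, 2 and 3; black lines give the group mean and bars its SD (n = 3), except for Ptgs2, which has a log axis and means only. Ptgs2 stands at 527.47 in PBS 2, and its 6 APAP and OAP2 libraries lie between 76.21 and 109.32, below the 6 PBS and Oxa libraries.

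Pla2g4a encodes group IVA cytosolic phospholipase A2, which releases arachidonic acid from membranes and so supplies both branches (chr1:149829618-149961290, minus strand, GRCm38). Its FPKM was 19.16, 20.60 and 22.23 in PBS 1 to 3. It was 16.40, 17.90 and 16.68 in APAP 1 to 3. In Oxa 1 to 3 it was 15.11, 14.73 and 17.16, and in OAP2 1 to 3 it was 12.13, 12.25 and 14.91. The 3 PBS libraries were the highest of the 12, the 3 OAP2 libraries lay below all PBS and APAP libraries, and PBS 2 was the middle one of the controls.

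The group means ran from PBS (20.7 ± 1.54, SD, n = 3) over APAP (17.0 ± 0.80) and Oxa (15.7 ± 1.31) to OAP2 (13.1 ± 1.57). The change was -0.64 ± 0.10 in OAP2 against PBS (edgeR adjusted p = 0.00309) and -0.39 ± 0.10 in Oxa against PBS (edgeR adjusted p = 0.0251). Without PBS 2 both values stayed at -0.64 and -0.39, with edgeR adjusted p of 0.00133 and 0.0143. APAP against PBS gave -0.24 ± 0.10, which did not pass (edgeR adjusted p = 0.498), although the groups did not overlap. Among the treatments, the value was -0.40 ± 0.10 in OAP2 against APAP (edgeR adjusted p = 0.0891, and 0.0226 without PBS 2). It was -0.25 ± 0.10 in OAP2 against Oxa (edgeR adjusted p = 0.115), where OAP2 3 lay above Oxa 2. In Oxa against APAP it was -0.15 ± 0.10 (95% interval -0.36 to 0.06), and the libraries overlapped. The call in OAP2 against PBS was lost when only the 6 libraries compared were fitted (adjusted p = 0.0883). The call in Oxa against PBS was lost in that fit (0.0577), without the filter on low values (0.0876), and without PBS 3 (0.0822), Oxa 1 (0.1001) or Oxa 2 (0.106). Calls were also gained. OAP2 against Oxa passed without OAP2 3 (edgeR adjusted p = 0.0241) and in limma with quality weights for the libraries (0.00552). OAP2 against APAP passed without OAP2 3 (edgeR adjusted p = 0.0259), in DESeq2 (0.0135) and in limma with these weights (0.0016). OAP2 3 had a weight of 0.239.

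Ptgs1 encodes cyclooxygenase-1, the constitutive enzyme of prostaglandin formation (chr2:36230426-36252272, plus strand). It was measured at 17.22, 18.83 and 17.21 FPKM in PBS 1 to 3 and at 13.33, 13.71 and 11.85 in APAP 1 to 3. Oxa 1 to 3 stood at 17.28, 14.42 and 15.07, and OAP2 1 to 3 at 15.84, 15.05 and 11.81. All APAP and all OAP2 libraries lay below all PBS libraries, and the Oxa libraries overlapped with both PBS and OAP2. The means were ordered PBS (17.8 ± 0.93), Oxa (15.6 ± 1.499), OAP2 (14.2 ± 2.14) and APAP (12.96 ± 0.98), and no pair of groups passed the edgeR test. The largest value was -0.41 ± 0.12 in APAP against PBS (edgeR adjusted p = 0.350). OAP2 against PBS gave -0.31 ± 0.12 (edgeR adjusted p = 0.153). Without PBS 2 these were -0.37 and -0.26, and neither passed (edgeR adjusted p = 0.317 and 0.180). With voom weights that count each library by its quality, the value in APAP against PBS was -0.41 and passed (limma adjusted p = 0.0451), and so did Oxa against APAP (0.27, limma adjusted p = 0.0202). The TEC transcript Gm43621 overlaps Ptgs1 on the other strand, and whether counting used strand is not given in the sources used here.

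Ptgs2 encodes cyclooxygenase-2 (chr1:150100031-150108227, plus strand), and its start follows the promoter with the capital letters shown above. Its FPKM was 136.37, 527.47 and 151.52 in PBS 1 to 3. It was 95.85, 102.71 and 76.21 in APAP 1 to 3 and 109.32, 87.62 and 76.22 in OAP2 1 to 3. The Oxa libraries 1 to 3 stood at 164.15, 130.42 and 156.36. PBS 2 thus stood far above the next library, Oxa 1. PBS 1 and PBS 3 lay within the range of Oxa, and the APAP and OAP2 libraries overlapped with each other and with no library of PBS or Oxa. This separation of the 6 APAP and OAP2 libraries below the 6 PBS and Oxa libraries was looked at after the values were seen. It held for 231 tested genes (1.92%), and among the 6 tested members for Ptgs2.

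The PBS mean of Ptgs2 was 271.8 ± 221.6 (SD, n = 3), and 143.9 over PBS 1 and PBS 3. The other means were 150.3 ± 17.7 in Oxa, 91.6 ± 13.8 in APAP and 91.1 ± 16.8 in OAP2. OAP2 against PBS gave -1.57 ± 0.39 (edgeR adjusted p = 0.0352) and, without PBS 2, -0.65 ± 0.15 (edgeR adjusted p = 0.0131). APAP against PBS gave nearly the same values, -1.53 ± 0.39 and -0.61 ± 0.15, but neither passed (edgeR adjusted p = 0.296 and 0.208), in a comparison where almost no gene was called. Oxa against PBS gave -0.85 ± 0.39 (edgeR adjusted p = 0.177), and without PBS 2 its sign turned, to 0.07 ± 0.16 with a 95% interval of -0.27 to 0.41.

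Between the treatments, whose libraries do not include PBS 2, Ptgs2 stood at -0.72 ± 0.39 in OAP2 against Oxa and at 0.68 ± 0.39 in Oxa against APAP (edgeR adjusted p = 0.250 and 0.255). The spread is shared by all groups in the fit, so PBS 2 entered these errors. Without PBS 2 the same values had an SE of 0.14 and passed (edgeR adjusted p = 0.00281 and 0.00329), and they passed with only the 6 libraries compared (0.0101 and 0.000528). The fit of 6 libraries called more genes of all kinds, 1876 and 4409 of 12036, against 1557 and 1852 with all 12 libraries. OAP2 against APAP gave -0.04, with a 95% interval of -0.87 to 0.79 that narrowed to -0.34 to 0.26 without PBS 2. The interval leaves room for a difference in either direction, so these values do not show that OAP2 and APAP act alike on Ptgs2. The call in OAP2 against PBS was lost without any 1 of the 9 libraries of APAP, Oxa and OAP2 in turn (adjusted p of 0.0525 to 0.122). It was kept without any 1 of the PBS libraries, and it was lost with only the 6 libraries compared (0.226), without the filter on low values (0.117), with a replicate block (0.0552) and in limma on log2 FPKM (0.0871 and 0.0872 with a pseudocount of 1 and 0.1).

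**Figure D2:**
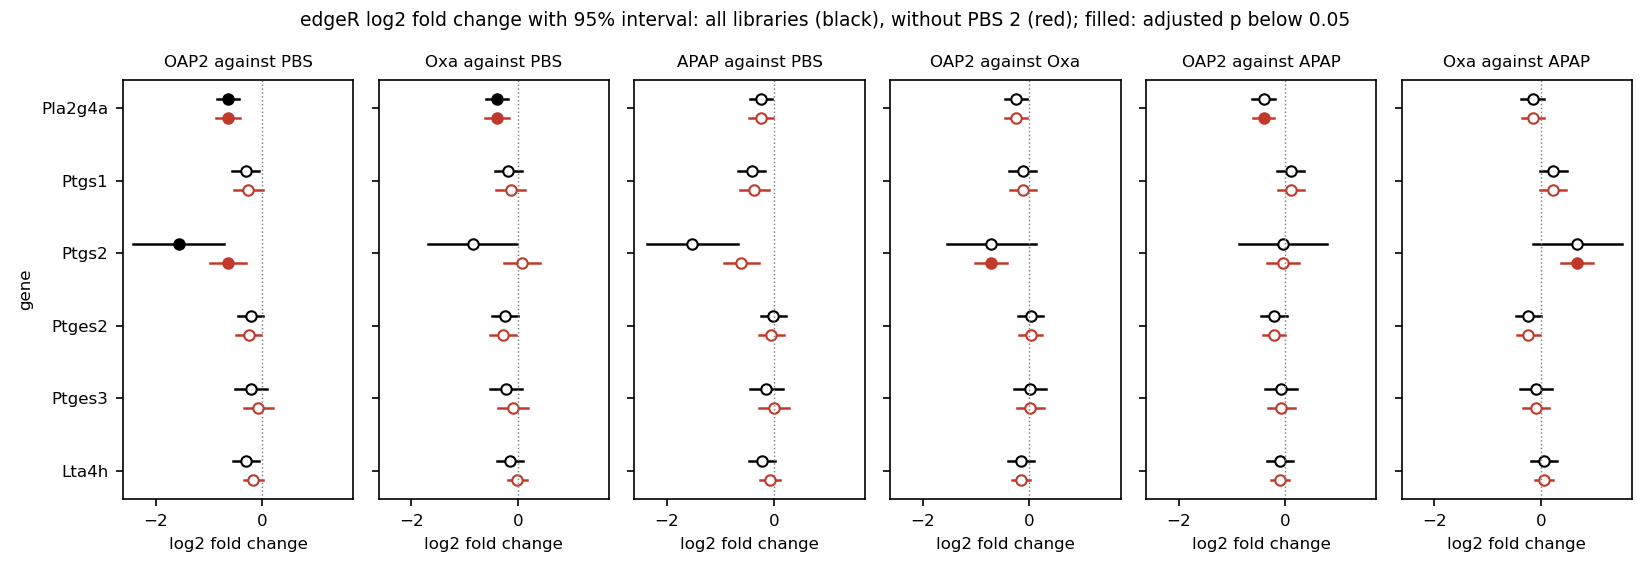
EdgeR log2 fold change (horizontal axis) of the 6 tested genes in the 6 comparisons, with 95% intervals, for all 12 libraries (black) and without PBS 2 (red); filled points have an adjusted p below 0.05. The Ptgs2 interval in OAP2 against Oxa narrows from -1.55 to 0.12 with all libraries to -1.02 to -0.41 without PBS 2, while the Pla2g4a values hardly move.

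Both cyclooxygenases take the same substrate, and the ratio of their FPKM describes which transcript prevails. Ptgs2 exceeded Ptgs1 in every library. The ratio was 7.92, 28.0 and 8.80 in PBS 1 to 3 and 9.50, 9.04 and 10.4 in Oxa 1 to 3. It was 7.19, 7.49 and 6.43 in APAP 1 to 3 and 6.90, 5.82 and 6.45 in OAP2 1 to 3. The 6 APAP and OAP2 libraries were again the lowest, and all 3 Oxa libraries lay above PBS 1 and PBS 3. Ptgs2 made up 41.4% to 61.96% of the summed FPKM of the 10 genes in 11 libraries and 80.3% in PBS 2. Its rank by FPKM among all genes of the table lay between 156 and 497 in those 11 libraries and was 44 in PBS 2.

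Ptgs2os is a non-coding transcript that runs away from Ptgs2 on the minus strand (chr1:150074873-150099963), and 67 bases lie between its start and that of Ptgs2, within the promoter shown above. It was examined after the values of Ptgs2 were seen. Its FPKM was 3.26, 2.85 and 3.17 in PBS 1 to 3 and 3.67, 2.81 and 3.94 in Oxa 1 to 3. It was 2.87, 2.64 and 2.26 in APAP 1 to 3 and 1.9, 2.29 and 2.1 in OAP2 1 to 3. The OAP2 libraries lay below all PBS and Oxa libraries, and PBS 2 was the lowest of the controls, unlike for Ptgs2. The change was -0.72 ± 0.16 in OAP2 against Oxa (edgeR adjusted p = 0.01004), the same size as for Ptgs2. It was -0.55 ± 0.16 in OAP2 against PBS (edgeR adjusted p = 0.0617, and 0.0232 at -0.60 without PBS 2). A further non-coding transcript of the same name, Ptgs2os2 (chr1:150159043-150164948, minus strand), gave -0.53 ± 0.15 in OAP2 against PBS (edgeR adjusted p = 0.0528, and 0.0205 without PBS 2). Pla2g4a lies on the other side of Ptgs2os, 138740 bases from Ptgs2, with 3 annotated genes and no protein-coding gene between them. In Oxa against PBS without PBS 2, the neighbours gave -0.39 (Pla2g4a) and 0.07 (Ptgs2), a difference between genes that was not tested.

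**Figure D3:**
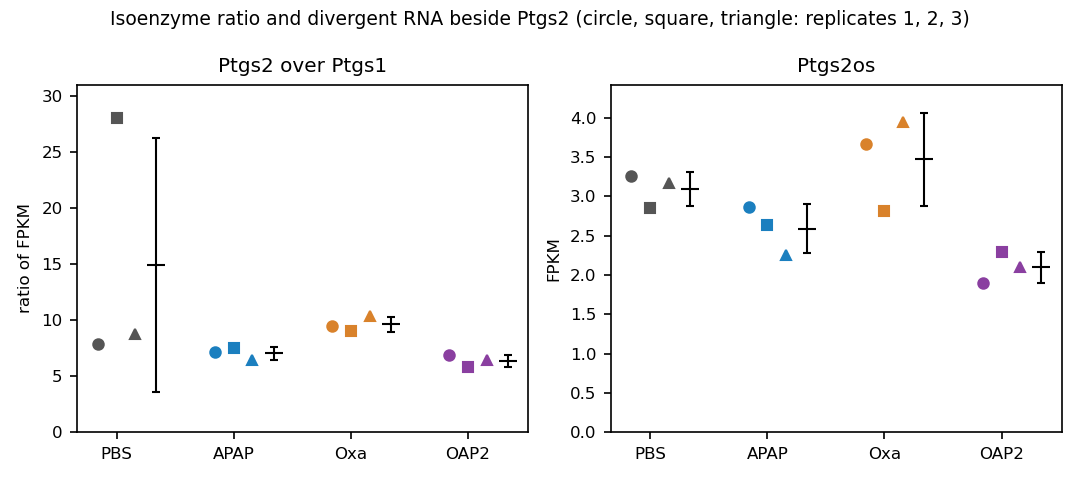
Left, the ratio of Ptgs2 to Ptgs1 FPKM, and right, the FPKM of Ptgs2os, in each library by group; circles, squares and triangles are replicates 1, 2 and 3, lines the group mean and bars the SD (n = 3). The ratio reaches 28.0 in PBS 2, whereas Ptgs2os in the same library is at 2.85, the lowest of the controls.

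The terminal synthases Ptges, Ptges2 and Ptges3 convert prostaglandin H2 to prostaglandin E2. Ptges encodes the inducible microsomal enzyme that is commonly coupled to cyclooxygenase-2 (chr2:30889471-30903297, minus strand), and it was barely detected. Its FPKM was 1.15, 0.29 and 0.51 in PBS 1 to 3, 0.42, 0.63 and 0.60 in APAP, 0.85, 0.57 and 0.83 in Oxa and 0.76, 1.00 and 0.79 in OAP2. These levels rest on 93 to 379 counts per library. PBS 2, the library with the highest Ptgs2, had the lowest Ptges, and the OAP2 libraries all lay above the APAP libraries. It was left out of the main test, because 2 libraries reached an FPKM of 1 and 3 were required. In the edgeR fit without that filter (28844 genes), neither Ptges nor the other 3 untested members passed in any comparison, and their lowest adjusted p was 0.152.

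Ptges2 encodes another membrane-associated synthase (chr2:32395896-32405772, plus strand). It stood at 4.02, 4.10 and 4.91 in PBS 1 to 3, at 4.23, 4.12 and 4.24 in APAP, at 3.74, 3.64 and 3.54 in Oxa and at 3.44, 3.66 and 3.99 in OAP2. The Oxa and OAP2 libraries lay below all PBS and APAP libraries, but no change passed. The values were -0.24 ± 0.11 in Oxa against PBS (edgeR adjusted p = 0.171), -0.22 ± 0.11 in OAP2 against PBS (0.286) and -0.24 ± 0.11 in Oxa against APAP (0.159, and 0.0395 in limma with quality weights). Without PBS 2 they were -0.28, -0.25 and -0.24, and none passed (edgeR adjusted p = 0.0795, 0.140 and 0.0941). APAP against PBS gave -0.01, with a 95% interval of -0.24 to 0.23.

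Ptges3 encodes the cytosolic synthase, which is also the Hsp90 co-chaperone p23 (chr10:128058954-128077272, plus strand), and it ranked next to Ptgs2 among the 10 transcripts. It stood at 61.68, 78.50 and 59.62 in PBS 1 to 3 and at 58.83, 57.62 and 60.61 in APAP. Oxa stood at 58.53, 54.30 and 57.30, and OAP2 at 51.70, 48.48 and 71.43. The OAP2 libraries spanned almost the whole range of the 12, with OAP2 3 second only to PBS 2. None of the 6 comparisons passed, and the values lay between -0.23 and 0.02. OAP2 against PBS gave -0.21 ± 0.14 with all libraries (edgeR adjusted p = 0.448) and -0.07 without PBS 2 (0.769), and it passed in limma with quality weights (-0.26, adjusted p = 0.0383), where OAP2 3 had a weight of 0.239 and PBS 2 of 0.131. A processed pseudogene, Ptges3-ps on chromosome 6, was listed at 78.5 to 105.4 FPKM, above the gene itself in every library. Reads can be shared between such copies, and how the authors divided them is not given, so the level of Ptges3 is uncertain. Ptges3-ps was not called in any comparison either.

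Hpgd encodes the dehydrogenase that inactivates prostaglandin E2 (chr8:56294585-56321043, plus strand). It was listed at 0 in 11 libraries and at 0.05 FPKM, 8 counts, in PBS 2. In those 11 libraries the listed count was 0 too, which does not show that the transcript was absent. Ptger4 encodes EP4, a receptor of prostaglandin E2 that raises cyclic AMP (chr15:5206661-5244172, minus strand). It was listed between 0.03 and 0.20 FPKM, on 15 to 106 counts, with overlapping groups, and Ttc33 overlaps it on the other strand, so reads of the pair may be mixed. Of the other prostaglandin E2 receptors, Ptger1 passed the filter and was not called in any comparison with all 12 libraries.

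Alox5ap encodes the protein that presents arachidonic acid to 5-lipoxygenase, and it is typical of myeloid cells (chr5:149264767-149288153, plus strand). Its FPKM was 0.08, 0.19 and 0.00 in PBS 1 to 3, 0.10, 0.03 and 0.20 in APAP, 0.00 in all 3 Oxa libraries and 0.06, 0.00 and 0.10 in OAP2. These are at most 23 counts. The Oxa libraries were all at 0, but so were PBS 3 and OAP2 2, and PBS 2 with its neutrophil transcripts had 23 counts, as did APAP 3. Lta4h encodes leukotriene A4 hydrolase, which makes leukotriene B4 (chr10:93453411-93484874, plus strand). It stood at 5.14, 7.08 and 5.67 in PBS 1 to 3, at 4.84, 5.21 and 4.93 in APAP, at 5.17, 5.16 and 5.63 in Oxa and at 4.65, 4.90 and 4.73 in OAP2. The OAP2 libraries lay below all PBS and Oxa libraries, and PBS 2 was the highest of the 12. No comparison of Lta4h passed, and the largest was -0.31 ± 0.11 in OAP2 against PBS (edgeR adjusted p = 0.128), or -0.17 without PBS 2 (0.205).

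Groups whose libraries do not overlap were also counted over the tested members, whose group means did not share 1 order. In OAP2 against PBS, 5 of 6 were lower in every OAP2 library than in every PBS library, against 9.94% of all tested genes, and the exception was Ptges3. In Oxa against PBS these were 3 of 6 (Pla2g4a, Ptges2 and Ptges3; 14.6% of all genes). In APAP against PBS they were again 3 of 6 (Pla2g4a, Ptgs1 and Ptgs2; 11.2%), and no member was higher in all libraries of OAP2, Oxa or APAP (8.78%, 14.5% and 4.67% of all genes were). OAP2 lay below Oxa for Ptgs2 and Lta4h (20.5% of all genes) and below APAP for Pla2g4a and Ptges2 (11.1%). Oxa lay above APAP for Ptgs1 and Ptgs2 (27.3%) and below it for Ptges2 (20.4%). Some of these counts rest on small differences between libraries, and the test across groups called Ptgs2 and Pla2g4a alone.

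The rest of the pathway was read from a list of 66 genes of phospholipases, synthases, receptors, transporters, lipoxygenases and arachidonate supply, of which 57 were in the table and 25 passed the filter. None of the 25 was called in OAP2, Oxa or APAP against PBS (632, 1217 and 2 of 12036 genes were called). The medians of the 25 were 0.03, 0.006 and -0.12. In OAP2 against Oxa, where 6.02% of all tested genes were called as higher, 3 rose and 0 fell, namely the prostaglandin exporter Abcc4 (0.79 ± 0.23, edgeR adjusted p = 0.0379) and the secreted phospholipases Pla2g5 (0.76 ± 0.23, 0.0450) and Pla2g12a (0.38 ± 0.12, 0.0454). In Oxa against APAP 3 rose and 1 fell, against 8.21% and 7.18% of all tested genes. The rises were Ptgr1, a prostaglandin reductase that also acts on leukotriene B4 (2.47 ± 0.54, 0.0105), the desaturase Fads1 (0.62 ± 0.18, 0.0366) and the reductase Ptgr2 (0.46 ± 0.13, 0.0348), and Abcc4 fell (-0.97 ± 0.23, 0.0137). The 4 most abundant of the list were Hsp90ab1, Hsp90aa1, Anxa1 and Anxa2, the last 2 annexins known to bind or restrain phospholipases. None of them was called with all 12 libraries, but without PBS 2 Hsp90ab1 was called as higher in Oxa against PBS (0.62, edgeR adjusted p = 0.0014), OAP2 against PBS (0.53, 0.00528) and Oxa against APAP (0.40, 0.00807).

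Abcc4 stood at 39.17, 19.23 and 39.42 FPKM in PBS 1 to 3, at 41.89, 43.04 and 38.90 in APAP, at 22.77, 20.96 and 20.79 in Oxa and at 43.49, 40.70 and 27.17 in OAP2. All Oxa libraries lay below all APAP and OAP2 libraries, and PBS 2 lay below the Oxa libraries while PBS 1 and PBS 3 were near the APAP level. Oxa against PBS gave -0.59 ± 0.23 (edgeR adjusted p = 0.114), and -0.86 ± 0.15 without PBS 2 (0.00137). Ptgr1 was low throughout, at 0.24 to 0.51 in APAP, 1.75 to 2.43 in Oxa, 0.77 to 1.27 in OAP2 and 0.70, 1.92 and 0.28 in PBS 1 to 3. Without PBS 2, more genes of the list were called: 5 higher and 7 lower in Oxa against PBS (14.2% and 11.2% of all tested genes), 2 higher and 1 lower in OAP2 against PBS (8.77% and 7.65%) and none in APAP against PBS. Between the treatments they were 4 higher and 2 lower in OAP2 against Oxa (22.8% of all tested genes were called either way). They were 6 higher and 4 lower in Oxa against APAP (27.7%), and 1 each way in OAP2 against APAP (7.61%).

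A list of 26 regulators of Ptgs2 transcription or mRNA stability was read in the same way, and 25 passed the filter. Il1a, the cytokine interleukin-1 alpha that induces Ptgs2, and Zfp36, a protein that promotes decay of AU-rich mRNAs including Ptgs2, fell in OAP2 against PBS, and 0 rose, against 3.11% of all tested genes called as lower. Il1a gave -2.85 ± 0.77 (edgeR adjusted p = 0.0486) and -0.57 ± 0.24 without PBS 2 (0.132). Its FPKM was 18.90, 178.41 and 9.32 in PBS 1 to 3, 7.61 to 9.47 in APAP, 17.10 to 24.83 in Oxa and 8.40 to 10.46 in OAP2. As for Ptgs2, PBS 2 was far above the rest, and PBS 3 lay within the range of the APAP and OAP2 libraries. Zfp36 gave -0.69 ± 0.15 in OAP2 against PBS (0.0212), -0.74 ± 0.15 in Oxa against PBS (0.0108) and -0.59 ± 0.15 in Oxa against APAP (0.0229). Zfp36 was at 4.20 to 5.34 in PBS, 3.70 to 4.88 in APAP, 2.59 to 3.15 in Oxa and 2.91 to 3.15 in OAP2.

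In Oxa against PBS, Egr1 and Zfp36 fell and Usf1 rose, 3 of 25 where 10.1% of all tested genes were called. Egr1, an immediate early transcription factor, was at 1.15 to 1.47 FPKM in Oxa, 4.62 to 6.42 in APAP, 3.92 to 5.97 in OAP2 and 4.29, 17.66 and 3.68 in PBS 1 to 3. It gave -2.73 ± 0.48 in Oxa against PBS (edgeR adjusted p = 0.00555, and -1.62 without PBS 2), 2.04 ± 0.47 in OAP2 against Oxa (0.0135) and -2.16 ± 0.47 in Oxa against APAP (0.00986). Usf1, a factor that binds the E-box letters CACGTG, gave 0.54 ± 0.11 in Oxa against PBS (0.00948) and 0.49 ± 0.11 in Oxa against APAP (0.0111). In OAP2 against Oxa, Egr1, the receptor Egfr (0.56, 0.0397) and the factor Creb1 (0.25, 0.0491) rose, and the NF-kB subunit Nfkb1 (-0.43, 0.0481) and the RNA-binding protein Khsrp (-0.38, 0.0387) fell, 5 of 25 where 12.9% of all genes were called. In Oxa against APAP, Usf1, Nfkb1 (0.42, 0.0452) and Zfp36l1 (1.11, 0.0472) rose and Egr1, Zfp36 and Creb1 (-0.30, 0.0190) fell, 6 of 25 where 15.4% of all genes were called. With all libraries, none of the list was called in APAP against PBS or in OAP2 against APAP. The abundant Cebpb, Rela, Jun and Rbm3 were not called in any comparison with all 12 libraries.

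Without PBS 2 more regulators were called, as were more genes overall. They were 6 higher and 5 lower in Oxa against PBS (25.5% of all tested genes were called), 2 higher and 2 lower in OAP2 against PBS (16.4%), 5 higher and 7 lower in OAP2 against Oxa (22.8%) and 7 higher and 5 lower in Oxa against APAP (27.7%). In OAP2 against APAP 1 was called each way (7.61%), and in APAP against PBS none was. Cebpb, a C/EBP factor, was then higher in Oxa against PBS (0.81, edgeR adjusted p = 0.00142), OAP2 against PBS (0.58, 0.0152) and Oxa against APAP (0.54, 0.00675). Jun, an AP-1 subunit, was lower in Oxa and OAP2 against PBS (-0.61, 0.00379 and -0.58, 0.00806), and Rbm3 was higher in OAP2 against Oxa (0.26, 0.0292). Of the calls named above for the pathway and regulator genes with all libraries, that of Il1a in OAP2 against PBS was lost without PBS 2 and the others were kept. Leaving out each of the 12 libraries in turn lost more of them. In OAP2 against Oxa, Creb1 and Nfkb1 lost the call in 10 of these fits, Pla2g12a and Pla2g5 in 9 and Abcc4 in 8. Zfp36l1 in Oxa against APAP lost it in 9. The calls of Egr1 in Oxa against PBS and APAP, and of Zfp36 in Oxa against PBS, were kept in all 12.

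**Figure D4:**
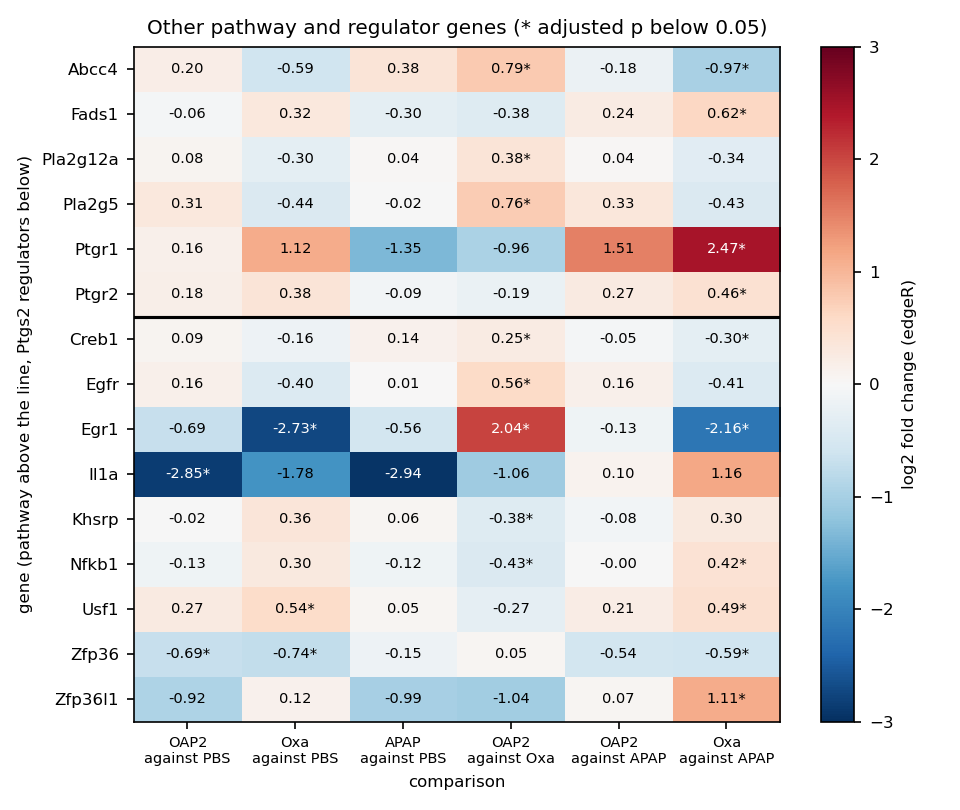
EdgeR log2 fold change (colour and printed value) of the other pathway genes (above the line) and Ptgs2 regulators (below it) that were called in at least 1 of the 6 comparisons (horizontal axis) with all 12 libraries, with asterisks at an adjusted p below 0.05. Egr1 is at -2.73 in Oxa against PBS and 2.04 in OAP2 against Oxa, and the column of APAP against PBS has no asterisk.

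The genes most like Ptgs2 and Pla2g4a were sought among 8758 tested genes with a mean FPKM of at least 2, by Pearson's r of log2 CPM over the libraries, as a description. Over 12 libraries Ptgs2 was closest to the chemokine Cxcl1 (r = 0.963), followed by Slf1, Slc25a5, Xrn2, Ackr3, Acsl5, Il1a and Chd1l, all of which, like Ptgs2, were highest in PBS 2. Over the 11 libraries without PBS 2 it was closest to the mitochondrial transfer RNA mt-Tw (r = 0.972), followed by mt-Ta, mt-Tt, Glmp, mt-Tn, Sparc, Ttc13 and Cxcl5, and none of the 8 was shared with the first list. Pla2g4a was closest to the splicing factor Tra2a (r = 0.968), followed by Naa15, Mrpl9, Gabpa, Poldip2, Letm1, Dsg3 and Dynap, and without PBS 2 Tra2a and Naa15 remained among its closest 8. The points share library depth and the group structure, so a high r says only that the levels ran in parallel.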

How the data were processed

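Per the labels' protocols, the 12 libraries came from poly(A) RNA, kept strand and were read from both ends. The submitters' processing notes list, with no roles, edgeR, DESeq2, StringTie 2.1.6, HISAT2 2.2.1 and cutadapt 1.9, and the genome build mm9, but 87.9% of 29864 genes matched to GENCODE M21 by identifier have their GRCm38 positions, which are given here. The deposited table holds estimated counts (expected counts, whole numbers, not scaled between libraries) and FPKM, which the authors scaled to length and depth, per the file headers. The estimated counts need not be reads: a count of 4 occurs 7655 times, against 5992 for 3 and 3357 for 5. Columns named CON were taken as PBS, since no other group lacks a drug.

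The 12036 genes that reached an FPKM of 1 in 3 or more libraries were scaled by TMM and tested in edgeR 4.0.16 (R 4.3.3; glmQLFit and glmQLFTest, 2-sided, 1 mean per group, Benjamini-Hochberg over all genes tested). The biological coefficient of variation was 18.1%. SE is the fold change over the square root of F, an approximation, and 95% intervals follow from it. The main fit had no replicate block, because the replicate numbers are not said to mark a shared culture or day. In a later check, same-numbered libraries did not deviate together (correlations of -0.152 to 0.155 over 18 pairs). Alternatives used DESeq2 1.42.0 and limma 3.58.1. Depth was 64071751 to 71500487 counts per library.

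The 10 genes and the lists were chosen with earlier results of these data known. Named from the lists were all genes called in at least 1 comparison and the 4 of highest mean FPKM, and for likeness the 8 genes of highest r, without predicted genes and pseudogenes.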

Additional observations from a re-analysis of the deposited data

How the results depend on the processing

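The 36 values of the 6 tested members were refitted under 22 alternatives. Of 792 refitted values, 737 kept direction and side of the threshold, 20 lost a call, 16 gained one and 19 changed sign, none of these last passing the test. Against PBS, the count of members called in OAP2 fell from 2 to 1 in limma on log2(FPKM + 1) or log2(FPKM + 0.1). It also fell to 1 without the filter on low values and with the replicate block, and to 0 with only the 6 libraries compared. Over all genes these fits called 558, 549, 360 (of 28844), 513 and 38, against 632 in the main fit. In Oxa the count of members fell from 1 to 0 without the filter and with only the 6 libraries. These 2 fits called 701 of 28844 and 523 of 12036 genes, against 1217 in the main fit. In limma voom with quality weights the counts rose to 1 in APAP against PBS, 2 in OAP2 against Oxa and 1 in OAP2 against APAP. They rose to 3 in Oxa against APAP and 4 for any difference among groups. Of 12036 genes this fit called 105, 3474, 1567, 4719 and 5823 in the same order. It also gave 3 members in OAP2 against PBS, against 2 in the main fit, and called 2836 genes there. With only the 6 libraries the counts of members rose from 0 to 1 in OAP2 against Oxa and in Oxa against APAP. That fit called 1876 and 4409 of 12036 genes there. DESeq2 gave 1 member in OAP2 against APAP, where it called 506 of 12031 genes. For any difference among groups, both limma fits on FPKM and the fit without the filter gave 1. They called 1860, 1835 and 1226 (of 28844) genes. DESeq2 and the replicate block gave 3 members for any difference, against 2 in the main fit. These 2 fits called 3444 of 12031 and 1763 of 12036 genes. The cause was not tested.

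Leaving out 1 library at a time gave 1 to 2 members called in OAP2 against PBS, 0 to 1 in Oxa against PBS, OAP2 against Oxa, OAP2 against APAP and Oxa against APAP, 0 in APAP against PBS and 1 to 3 for any difference. Of 12036 genes, these fits called 252 to 1976 in OAP2 against PBS and 477 to 3066 in Oxa against PBS. They called 688 to 2743 in OAP2 against Oxa, 0 to 916 in OAP2 against APAP and 840 to 3338 in Oxa against APAP. In APAP against PBS they called 0 to 3, and for any difference 919 to 4295. With the replicate block, Ptgs2 in OAP2 against PBS stood at -1.41 (edgeR adjusted p = 0.0552), and 2 of 12 libraries correlated best with their own number.

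Signs turned as follows. Ptgs2 in Oxa against PBS was 0.0267 with quality weights and ranged from -1.18 to 0.0713 over the left-out libraries, and in OAP2 against APAP it was 0.10 with weights and ranged from -0.18 to 0.0721. Ptges2 in APAP against PBS was 0.0019 with upper-quartile scaling, 0.0019 with FPKM of at least 1 in all libraries and 0.0097 with weights, and ranged from -0.0488 to 0.0703. Ptges2 in OAP2 against Oxa was -0.0233 with weights and ranged from -0.0324 to 0.0823. Ptges3 in OAP2 against Oxa was -0.0077 and -0.0081 in the limma fits on log2(FPKM + 1) and log2(FPKM + 0.1) and -0.14 with weights, and ranged from -0.17 to 0.12, in APAP against PBS it ranged from -0.22 to 0.0014, and in OAP2 against APAP from -0.27 to 0.0285. For Ptgs2os and the other named pathway and regulator genes, only values called in the main fit were refitted, so no gain could appear. Of these 527 refitted values, 371 kept their call and 156 lost it. Ptges, Hpgd, Ptger4 and Alox5ap entered the fit without the filter on low values alone, and none passed there.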

Other observations

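The regulators of Ptgs2 did not have their highest values in 1 group. Of the 25 tested regulators, 9 were highest in PBS 2 (Atf2, Egr1, Elavl1, Fos, Il1a, Map3k7, Myd88, Rbm3 and Zfp36l1), against 17.6% of all tested genes, and 6 in Oxa 2 (Cebpb, Khsrp, Mapk14, Nfkb1, Rela and Usf1), against 6.88% of all tested genes. In the wider pathway, 5 of 25 genes were highest in PBS 2 (Acsl4, Anxa1, Fads1, Fads2 and Hsp90ab1), against 17.6% of all tested genes. Another 5 were highest in PBS 3, against 15.0%. In OAP2 1 there were 6 (Abcc4, Cbr2, Lpcat3, Pla2g15, Pla2g5 and Pla2g6), against 9.45%. These counts were made after the values of PBS 2 had been seen and are a description.

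Zfp36l1, a relative of Zfp36, was, like Ptgs2, highest in PBS 2. Its FPKM was 17.14, 54.33 and 15.62 in PBS 1 to 3, 14.08 to 14.39 in APAP, 27.85 to 33.91 in Oxa and 14.87 to 15.54 in OAP2. It gave 0.12 ± 0.34 in Oxa against PBS (edgeR adjusted p = 0.858) and, without PBS 2, 0.95 ± 0.11 (0.000107), whereas Ptgs2 gave 0.07 without PBS 2 in that comparison.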
